A study of Mus musculus with 12 samples.

Results

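AMP-activated protein kinase (AMPK) and the kinases that switch it on were described here through 10 genes, chosen by symbol as the subunit genes Prkaa1, Prkaa2, Prkab1, Prkab2, Prkag1 and Prkag2 and the upstream genes Stk11, Cab39, Strada and Camkk2. All 10 were present among the 55401 genes of each of the 2 count tables, and all 10 passed the filter on low counts in both. The libraries were bulk RNA-seq of tumor-associated macrophages (TAMs), sorted as CD45+CD11b+Ly6C-Ly6G-F4/80+ cells from subcutaneous B16-F10 melanomas, with 3 libraries per group. WT TAMs came from AMPKfl/fl mice, which carry the floxed AMPK allele without a labelled Cre. AMPK-KO TAMs came from AMPKfl/flLyz2cre/cre mice, in which Cre is expressed from the myeloid Lyz2 (LysM) locus, and both of these groups were taken on day 15 after implantation. The titles of all 3 AMPK-KO samples name Lyz2cre/cre and set the group here, while the genotype field of replicates 2 and 3 reads Lyz3cre/cre and Lyz4cre/cre. Early-stage TAMs were taken on day 8 and late-stage TAMs on day 15, both from mice labelled WT, with no floxed allele or Cre labelled. The methods place the mice on C57BL/6 and describe implantation in female mice, and no group had a labelled treatment. WT with AMPK-KO and early-stage with late-stage were deposited as separate tables, so each comparison was fitted within its own table. The labels do not say whether the 3 replicates of a group were separate mice, so p-values measure the spread between these libraries, which may be technical.

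AMPK is a heterotrimer of a catalytic α subunit (Prkaa1 or Prkaa2), a β scaffold that binds glycogen (Prkab1 or Prkab2) and a γ subunit that senses AMP, ADP and ATP (Prkag1, Prkag2 or Prkag3). It is activated when a threonine in the activation loop of the α subunit is phosphorylated, either by LKB1 (Stk11) bound to the pseudokinase STRADα (Strada) and the scaffold MO25α (Cab39), or by the calcium-dependent kinase CaMKK2 (Camkk2). In macrophages, AMPK is known for restraining lipid synthesis, promoting fatty acid oxidation and autophagy, and favoring an anti-inflammatory state. This regulation acts on the protein, and mRNA levels do not measure kinase activity.

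The loop that LKB1 and CaMKK2 act on is shown because it is the point where the 2 groups of genes meet, and because Prkaa1 and Prkaa2 are alike there. The sequences were read from the mouse reference transcripts (GENCODE M21, GRCm38), with the threonine codon in capitals (codon 183 of the longest reading frame of Prkaa1 and codon 172 of that of Prkaa2).
Prkaa1: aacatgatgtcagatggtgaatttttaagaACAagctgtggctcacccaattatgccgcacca
Prkaa2: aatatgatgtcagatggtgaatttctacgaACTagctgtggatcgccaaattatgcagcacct
The Prkaa1 window lies within exon 5 of 9 at chr15:5169937-5169999 on the plus strand, and the Prkaa2 window within exon 5 of 9 at chr4:105049351-105049413 on the minus strand. The windows were identical at 54 of 63 bases, and the longest identical run between the 2 coding sequences was 35 bases. No stretch of 75 bases was shared between their transcripts, or with those of any other gene.

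Libraries held 71019494 to 81671067 counts in the WT and AMPK-KO table and 77155066 to 84470374 in the stage table. The 8 macrophage markers summed to 10090 to 11040 CPM (counts scaled to the size of the library) in WT, 10430 to 10590 in AMPK-KO, 8033 to 9575 in early-stage and 10020 to 10120 in late-stage libraries. Among them, Itgam (log2 fold change 0.55) and Csf1r (0.14) were called higher and Cd68 (-0.55) lower in AMPK-KO, and C1qa (0.49) was called higher in late-stage TAMs. Other cell types' markers differed between the groups. All 5 of 5 melanoma markers were lower in AMPK-KO (summed 880.1 to 887.7 CPM in WT and 585.8 to 618.4 in AMPK-KO), as were 4 of 5 in late-stage TAMs (1498 to 1625 CPM early and 671.7 to 1092 late), with no melanoma marker at 0. Fibroblast markers were higher in AMPK-KO for 4 of 5 (568.8 to 614.0 against 737.0 to 816.1 CPM) and lower in late-stage TAMs for 3 of 5 (799.1 to 873.2 against 391.5 to 550.3 CPM), and all 4 NK cell markers were higher in AMPK-KO and lower in late-stage TAMs. T cell markers were higher in AMPK-KO for 4 of 5, dendritic cell markers for 4 of 5 and neutrophil markers for 4 of 4 tested (Ly6g was at 0), and all 4 erythroid markers were lower. The 4 Y-linked genes summed to 9229 to 11360 counts in WT, 11299 to 12183 in AMPK-KO, 3435 to 4035 in early-stage and 0 to 4 in late-stage libraries. Stage and the presence of Y-linked RNA therefore cannot be told apart. The methods describe female mice, whereas Y-linked RNA was counted throughout the WT, AMPK-KO and early-stage libraries. Its source and the sex of the mice in each group were not tested. Early-stage replicate 3 stood furthest from its group, with chi-square values per degree of freedom of 131 and 59.5 against its 2 partners, where the other replicate pairs gave 9.52 to 40.3.

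Prkaa1, the α1 subunit gene that the Cre was meant to delete, was lower in AMPK-KO TAMs but far from absent. Prkaa1 (chr15:5143861-5181899) stood at 68.8, 62.8 and 63.3 CPM in the 3 WT libraries and at 47.0, 40.9 and 40.8 CPM in the 3 AMPK-KO libraries. The groups did not overlap, and every AMPK-KO library was below the lowest WT library. The level in AMPK-KO was 66.0% of WT (95% confidence interval 59.0% to 73.8%), a log2 change of -0.60 (SE 0.07, adjusted p = 2.26e-04). A gene-level count also takes in reads from exons outside a floxed segment. Fewer cells of a type and less RNA per cell cannot be told apart in these data.

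Lyz2 RNA did not separate WT from AMPK-KO, and it was far lower in both than in the stage libraries. Lyz2, the lysozyme gene whose locus carries Cre, stood at 9.32, 13.5 and 9.16 CPM in WT and at 9.16, 11 and 13.5 CPM in AMPK-KO libraries (log2 fold change 0.07, adjusted p = 0.830). The WT and AMPK-KO ranges overlapped almost entirely. In the stage table, Lyz2 stood at 3009, 2884 and 2476 CPM in early-stage and at 1092, 1102 and 1129 CPM in late-stage TAMs, which are levels set across separately normalized tables. The labels alone give the WT libraries as without Cre, and whether they carry it was not tested.

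Prkaa2, the gene of the alternative α2 catalytic subunit, was scarce, with lower values in AMPK-KO TAMs. Prkaa2 (chr4:105029874-105109890) stood at 1.19, 1.18 and 0.944 CPM in WT and at 0.420, 0.686 and 0.656 CPM in AMPK-KO TAMs, from 77 to 86 and from 31 to 55 counts per library. All 3 AMPK-KO values lay below all 3 WT values. The log2 fold change was -0.91 (SE 0.34, 95% interval -1.66 to -0.15), and the adjusted p of 0.0875 missed the threshold of 0.05. The interval lay below 0 over its whole width. Prkaa1 made up 99.0% of the summed α level per length in WT and 99.2% in AMPK-KO TAMs (CPM per kilobase of exon, SD 0.111 and 0.249, n = 3). The summed α level per length was 14.1 ± 0.726 in WT and 9.29 ± 0.739 in AMPK-KO TAMs (SD, n = 3).

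**Figure D1:**
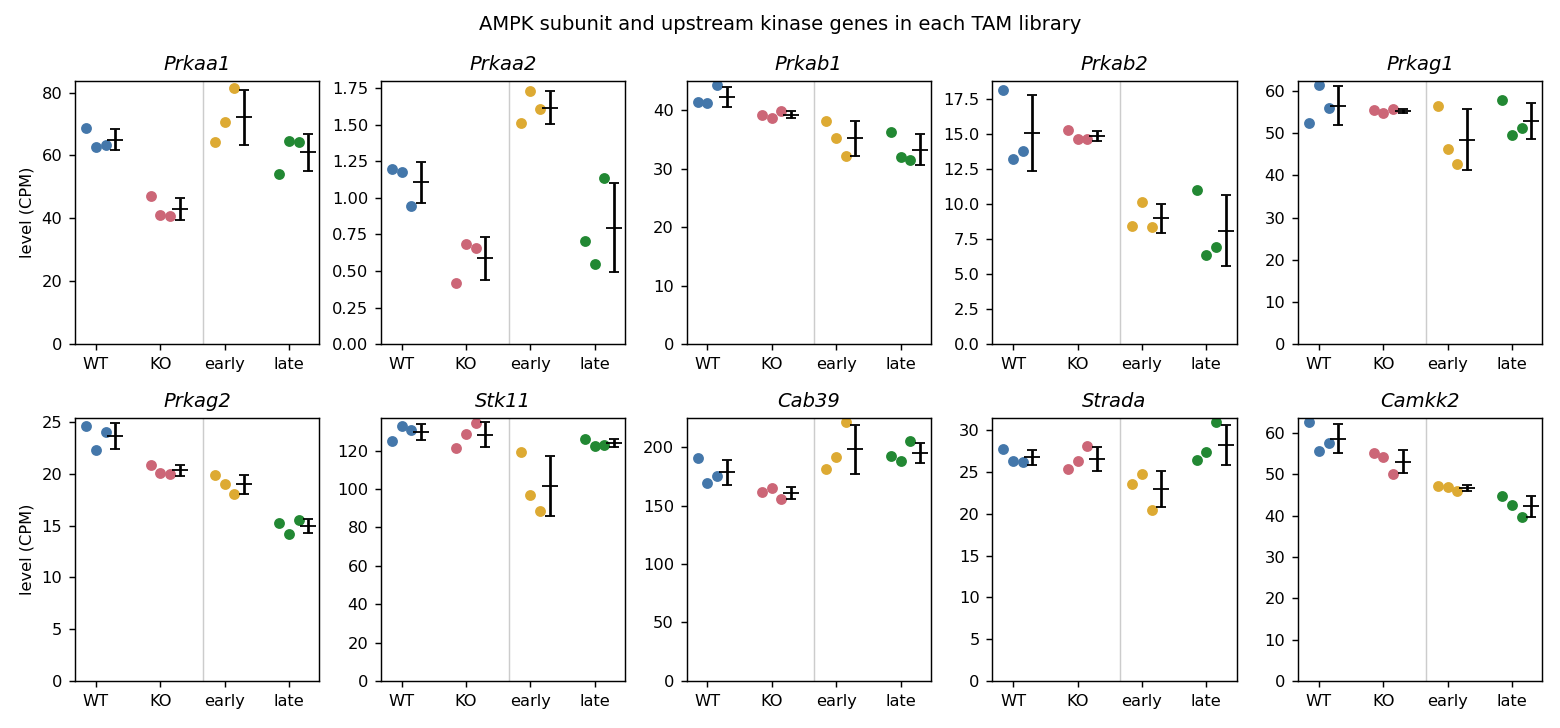
Level of each of the 10 genes in CPM (vertical axes, each starting at 0) in every library of the 4 groups, with black bars for mean and SD of 3 libraries. Prkaa1 at 40.8 to 47.0 CPM in AMPK-KO lies below its 62.8 to 68.8 CPM in WT, while Prkag1, Stk11 and Strada overlap between WT and AMPK-KO.

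The β subunit genes did not pass the test in AMPK-KO TAMs. Prkab1 (β1, chr5:116013586-116024508) stood at 41.4, 41.3 and 44.3 CPM in WT and at 39.2, 38.6 and 39.9 CPM in AMPK-KO TAMs. The groups did not overlap, but the log2 fold change was only -0.11 (SE 0.06, adjusted p = 0.252). Prkab2 (β2, chr3:97658193-97673812) stood at 18.2, 13.3 and 13.8 CPM in WT and at 15.3, 14.7 and 14.6 CPM in AMPK-KO TAMs. Its groups overlapped, with WT replicate 1 above all others, and the log2 fold change was -0.02 (95% interval -0.29 to 0.25, adjusted p = 0.935), which became 0.13 without WT replicate 1.

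Among the γ subunit genes, Prkag1 overlapped between the groups and Prkag2 was lower in each AMPK-KO library without passing the test. Prkag1 (γ1, chr15:98812797-98831521) stood at 52.3, 61.3 and 55.9 CPM in WT and at 55.4, 54.7 and 55.6 CPM in AMPK-KO TAMs. All AMPK-KO values fell inside the WT range, with a log2 fold change of -0.03 (95% interval -0.18 to 0.12, adjusted p = 0.787). Prkag2 (γ2, chr5:24862744-25100642) stood at 24.7, 22.3 and 24.1 CPM in WT and at 20.9, 20.1 and 20.0 CPM in AMPK-KO TAMs. These groups did not overlap, and the log2 fold change was -0.22 (SE 0.08, adjusted p = 0.0773). Prkag3 (γ3), which is known from skeletal muscle, had 0 counts in all WT and AMPK-KO libraries and 4 counts in a single late-stage library. An expected count of up to 3 per library remains possible behind an observed 0. Antisense genes overlapped 43.7% of the exon bases of Prkag1 (B130046B21Rik) and 14.5% of those of Prkag2 (Prkag2os1 and Prkag2os2), and whether counting used strand was not given in the sources used here. B130046B21Rik averaged 1.25 CPM in WT and 0.212 CPM in AMPK-KO TAMs (adjusted p = 0.0935), far below Prkag1. Such counts do not show how reads in the shared bases were assigned, which also limits the levels of Prkag1 and Prkag2.

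The LKB1 complex showed no called change in AMPK-KO TAMs. Stk11 (LKB1) stood at 125, 133 and 131 CPM in WT and at 122, 129 and 135 CPM in AMPK-KO TAMs. The groups overlapped, and the log2 fold change was -0.02 (95% interval -0.14 to 0.10, adjusted p = 0.873). Cab39 (MO25α, chr1:85793441-85851576) stood at 190.5, 169.7 and 176 CPM in WT and at 161, 165 and 156 CPM in AMPK-KO TAMs. Here the groups did not overlap, and the log2 fold change of -0.15 (SE 0.06) had an adjusted p of 0.0853. Strada (STRADα, chr11:106163330-106202168) stood at 27.8, 26.3 and 26.2 CPM in WT and at 25.3, 26.3 and 28.1 CPM in AMPK-KO TAMs, with overlapping groups and a log2 fold change of -0.01 (95% interval -0.17 to 0.16, adjusted p = 0.957).

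Camkk2, which links calcium to AMPK, was lower in each AMPK-KO library without passing the test. Camkk2 (chr5:122731170-122779409) stood at 62.5, 55.7 and 57.5 CPM in WT and at 55.0, 54.1 and 49.9 CPM in AMPK-KO TAMs. The highest AMPK-KO library lay just under the lowest WT library, and the log2 fold change was -0.14 (SE 0.07, adjusted p = 0.166).

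Read together, 1 of the 10 genes was called in AMPK-KO TAMs, beside 21.1% of all 17532 genes tested (11.3% higher and 9.78% lower). The called gene was Prkaa1, which held its call in all 14 alternative settings that used an adjusted p, at log2 fold changes of -0.669 to -0.558. All 10 log2 fold changes were below 0, with a median of -0.126 beside -0.00369 over all genes. The groups did not overlap for 6 of the 10, beside 37.2% of all genes, and 4 of the 10 had an unadjusted p under 0.05, beside 32.6% of all genes. The signs were not stable for the genes nearest 0: Prkab2, Prkag1, Stk11 and Strada turned positive when certain single libraries were left out. Melanoma markers were lower in the same AMPK-KO libraries, and the part of this difference in the members' values was not tested.

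In tumors of different age, no member was called between late-stage and early-stage TAMs by edgeR fitted on these 6 libraries, beside 9.18% of all 17630 genes tested (4.31% higher and 4.88% lower). At an unadjusted p under 0.05 there were 5 of the 10, beside 24.5% of all genes. DESeq2 with adjusted p called 1, which was Prkag2, and edgeR called Prkaa2, Prkag2 and Stk11 when all 12 libraries were fitted together, and Stk11 or Prkag2 when early-stage replicate 1 or 3 was left out. The log2 fold change was below 0 for 7 of the 10, with a median of -0.113 beside 0.00266 over all genes, and groups did not overlap for 5 of the 10, beside 31.2% of all genes.

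Both catalytic genes had lower means in late-stage TAMs. Prkaa1 stood at 64.1, 70.5 and 81.5 CPM in early-stage and at 54.2, 64.6 and 64.2 CPM in late-stage TAMs. The groups overlapped, early-stage replicate 3 being the highest library, and the log2 fold change was -0.24 (SE 0.11, 95% interval -0.48 to -0.00023, adjusted p = 0.204). Prkaa2 stood at 1.51, 1.73 and 1.61 CPM in early-stage and at 0.702, 0.550 and 1.14 CPM in late-stage TAMs. Its groups did not overlap, and the level in late-stage TAMs was 49.3% of the early level (95% interval 29.3% to 83.1%), with a log2 change of -1.02 (SE 0.34) and an adjusted p of 0.0926. Prkaa2 passed in 1 of 14 alternative settings that used an adjusted p, the fit of all 12 libraries together (adjusted p = 0.0449). In the other settings its adjusted p reached 0.266. Prkaa1 remained 98.7% of the α level per length in early-stage and 99.2% in late-stage TAMs. Melanoma markers, Y-linked RNA and stage moved together here, and their part in the Prkaa2 values was not tested.

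Of the γ genes, Prkag2 did not overlap between the stages but missed the test, and Prkag1 overlapped. Prkag2 stood at 19.9, 19.0 and 18.1 CPM in early-stage and at 15.3, 14.2 and 15.5 CPM in late-stage TAMs, so that every late-stage library was below every early-stage library. The log2 fold change of Prkag2 was -0.34 (SE 0.10, adjusted p = 0.0643). It was called in 3 of 14 alternative settings that used an adjusted p. These were DESeq2 (0.0346), the fit over 12 libraries (0.0109) and the fit without early-stage replicate 3 (0.0466). In the other settings the adjusted p reached 0.247. Prkag1 stood at 56.5, 46.2 and 42.7 CPM in early-stage and at 57.7, 49.6 and 51.3 CPM in late-stage TAMs, with overlapping groups and a log2 change of 0.13 (SE 0.11, adjusted p = 0.551). Neither β gene separated the stages. Prkab1 stood at 38.2, 35.2 and 32.2 CPM early and 36.3, 32.0 and 31.5 CPM late (log2 fold change -0.08, adjusted p = 0.672). Prkab2 stood at 8.43, 10.2 and 8.41 CPM early and 11.1, 6.38 and 6.94 CPM late (log2 fold change -0.15, adjusted p = 0.714), with late-stage replicate 1 the highest of the 6 libraries.

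Of the upstream genes, LKB1 and its pseudokinase partner were higher in every late-stage library without passing the test. Stk11 stood at 119, 96.8 and 88.7 CPM in early-stage and at 126, 122 and 123 CPM in late-stage TAMs. The late-stage values were close together, while early-stage replicate 1 approached them. The log2 fold change of Stk11 was 0.29 (SE 0.10, adjusted p = 0.122), and it was 0.42 with an adjusted p of 0.00492 without early-stage replicate 1. Stk11 was called in 2 of 14 alternative settings that used an adjusted p. Over these settings its log2 fold change went down to 0.198 and its adjusted p up to 0.323. Strada stood at 23.6, 24.7 and 20.5 CPM in early-stage and at 26.4, 27.4 and 31.0 CPM in late-stage TAMs (log2 fold change 0.30, SE 0.11, adjusted p = 0.124). Cab39 did not move with them, at 181, 192 and 222 CPM early and 192, 188 and 205 CPM late (log2 fold change -0.02, 95% interval -0.22 to 0.17, adjusted p = 0.909). Camkk2 stood at 47.2, 46.9 and 45.9 CPM early and 44.7, 42.5 and 39.6 CPM late, with no overlap and a log2 change of -0.14 (SE 0.08, adjusted p = 0.311).

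**Figure D2:**
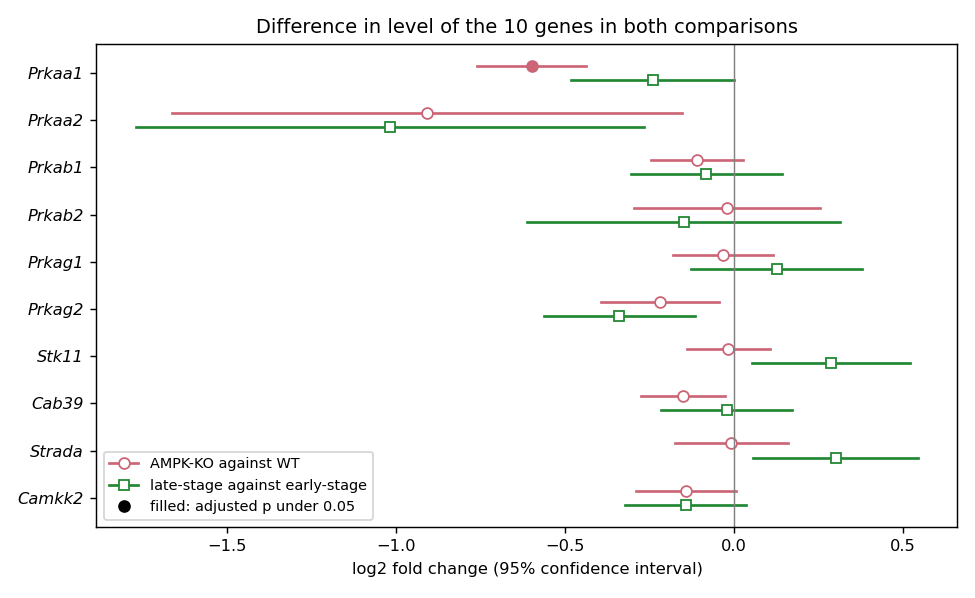
Log2 fold change (horizontal axis) of the 10 genes with 95% confidence intervals, for AMPK-KO against WT (red circles) and late-stage against early-stage (green squares), filled where the adjusted p was under 0.05. Prkaa1 in AMPK-KO, at -0.60, is the only filled point, and the widest intervals are those of the low-count Prkaa2.

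Levels were compared between genes per length, as CPM per kilobase of the gene's merged exons. In WT TAMs the order was Stk11 (28.3 ± 0.884, SD, n = 3), Prkag1 (26.0 ± 2.09), Cab39 (25.2 ± 1.51), Prkaa1 (14.0 ± 0.718), Prkab1 (13.8 ± 0.563), Camkk2 (5.36 ± 0.322), Strada (4.80 ± 0.161), Prkag2 (3.65 ± 0.189), Prkab2 (2.96 ± 0.529) and Prkaa2 (0.139 ± 0.0175). Libraries of neighbours overlapped for Stk11 and Prkag1, Prkag1 and Cab39, Prkaa1 and Prkab1, and Prkag2 and Prkab2. In AMPK-KO TAMs, Prkaa1 at 9.22 ± 0.758 came after Prkab1 at 12.8 ± 0.213, and these libraries did not overlap. The order of Prkaa1 and Prkab1 in WT depended on the length used, as given below. In early-stage TAMs Cab39 (28.0 ± 2.98) had the highest mean, overlapping Prkag1 (22.3 ± 3.29), which in turn overlapped Stk11 (22.2 ± 3.45). In late-stage TAMs Cab39 (27.6 ± 1.24) and Stk11 (27.1 ± 0.469) overlapped, and Prkaa1 (13.1 ± 1.27) overlapped Prkab1 (10.9 ± 0.852).

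**Figure D3:**
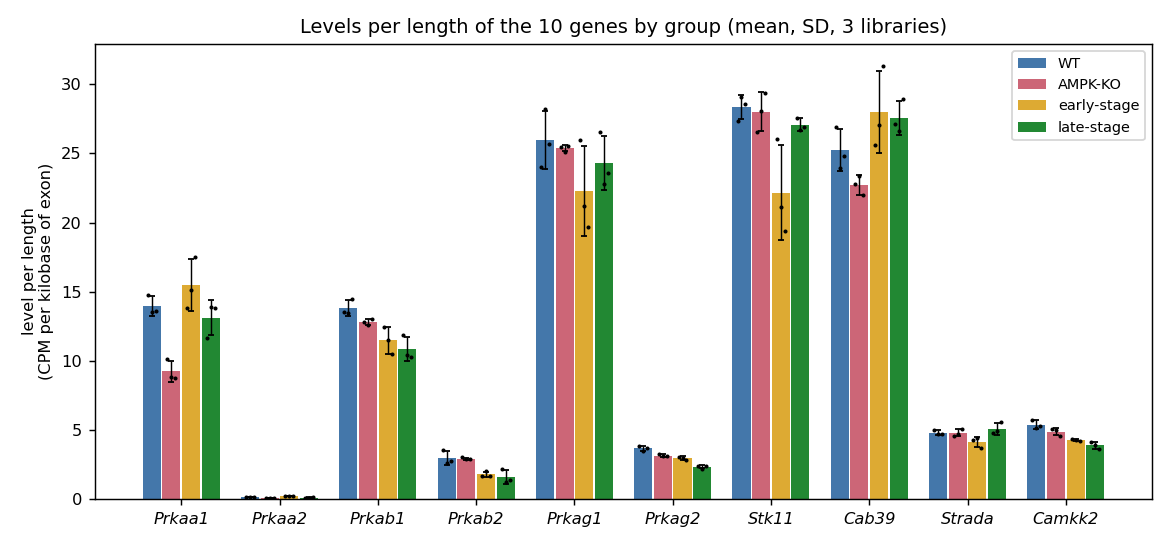
Level per length of the 10 genes (vertical axis, CPM per kilobase of exon, from 0) in each group, as the mean of 3 libraries with SD bars and a dot per library. Stk11, Prkag1 and Cab39 have the tallest bars and Prkaa2, at 0.0737 to 0.203, is barely visible.

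Within each subunit the same isoform gene led in all 4 groups. Prkab1 held 82.4% of the β level per length in WT, 81.4% in AMPK-KO, 86.6% in early-stage and 87.4% in late-stage TAMs. Prkag1 held 87.6%, 89.0%, 88.3% and 91.3% of the γ level in the same order of groups. With the length of the longest transcript in place of merged exons, the level of Camkk2 in WT went from 5.36 to 12. Cab39 then had the highest level in every group, against rank 3 in WT by merged exons. By that transcript length, the mean of Prkab1 was above that of Prkaa1 in all 4 groups. In WT these libraries did not overlap (19.8 to 21.2 for Prkab1, 13.5 to 14.8 for Prkaa1). Prkab1 then held 86.3% to 90.9% of β and Prkag1 82.7% to 87.6% of γ, so the leading isoform genes stayed the same by either length.

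Paralogs of the upstream genes passed the test in AMPK-KO TAMs where the upstream genes did not, although the difference between paralogs was not tested. Camkk1, the paralog of Camkk2, rose from 2.14, 1.86 and 1.75 CPM in WT to 3.25, 3.38 and 4.10 CPM in AMPK-KO TAMs. Every AMPK-KO library exceeded every WT library, with a log2 change of 0.90 (SE 0.19, adjusted p = 0.00671). Camkk2 held 91.3% of the summed CaMKK level per length in WT and 83.5% in AMPK-KO TAMs. Stradb, the paralog of Strada, fell from 19.0, 18.7 and 18.8 CPM to 15.5, 13.2 and 14.7 CPM (log2 fold change -0.38, adjusted p = 0.0140), a call lost without AMPK-KO replicate 2 (adjusted p = 0.0655) or WT replicate 3 (0.0521). Cab39l, the paralog of Cab39, had a log2 change of -0.21 (adjusted p = 0.0420), a call lost without any 1 of the 6 libraries (adjusted p = 0.0531 to 0.135). Of the 13 tested genes in this list of paralogs and regulators, 2 were called higher and 3 lower (38.5%, beside 21.1% of all genes). The others called were Fnip2, a folliculin partner (log2 fold change -0.32, adjusted p = 0.00284), and Sesn2, a stress-induced sestrin (0.26, adjusted p = 0.0367), the latter lost without any 1 library other than WT replicate 1 (adjusted p = 0.0585 to 0.156). This list and the other related lists were chosen with earlier results of these data known. Their shares beside those of all genes are therefore descriptions only.

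The AMPK-related kinases share the LKB1-dependent activation loop and were called higher in AMPK-KO TAMs for 4 and lower for 0 of 11 tested, beside 11.3% higher and 9.78% lower of all genes. Nuak2 rose from 35.5, 35.8 and 34.4 CPM in WT to 52.8, 54.2 and 56.2 CPM in AMPK-KO TAMs (log2 fold change 0.63, SE 0.06, adjusted p = 3.81e-05). Sik1, a salt-inducible kinase, rose from 95.5, 82.6 and 90.7 CPM to 125, 120.5 and 117 CPM (log2 fold change 0.43, adjusted p = 7.46e-04). Neither pair of groups overlapped, and both calls held without any 1 library. Mark2, a microtubule affinity-regulating kinase, had a log2 change of 0.21 (adjusted p = 0.0128), which missed the threshold without AMPK-KO replicate 1 (0.0614) or WT replicate 3 (0.0639). The median of this list was 0.0679 beside -0.00369 over all genes.

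Of the genes of AMPK substrates, 2 were called higher and 1 lower of 20 tested in AMPK-KO TAMs (15%, beside 21.1% of all genes). Lipe, hormone-sensitive lipase, rose from 23.1, 20.2 and 21.5 CPM to 34.2, 31.8 and 34.7 CPM (log2 fold change 0.64, SE 0.08, adjusted p = 2.60e-04), and its call held without any 1 library. Txnip, an inhibitor of glucose uptake, rose by a log2 change of 0.18 (adjusted p = 0.0128), a call lost without AMPK-KO replicate 1 (0.0584), AMPK-KO replicate 2 (0.0597) or WT replicate 3 (0.0849). Ppargc1a, the mitochondrial coactivator PGC-1α, fell from 3.03, 2.85 and 3.88 CPM to 2.05, 2.01 and 1.40 CPM (log2 fold change -0.84, adjusted p = 0.0225), a call lost without AMPK-KO replicate 2 (0.0522), AMPK-KO replicate 3 (0.0680) or WT replicate 3 (0.103).

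Enzymes that interconvert adenine nucleotides, the ligands of the γ subunit, were called lower for 4 of 9 tested in AMPK-KO TAMs, beside 9.78% of all genes. Ampd3, an AMP deaminase, fell from 62.5, 55.1 and 59.7 CPM in WT to 34.8, 32.3 and 33.9 CPM in AMPK-KO TAMs (log2 fold change -0.81, SE 0.07, adjusted p = 1.71e-05). The groups were well apart, and the call held without any 1 library. Ak3, the mitochondrial adenylate kinase that uses GTP, fell from 45.7, 47.9 and 46.8 CPM to 38.6, 38.4 and 37.0 CPM (log2 fold change -0.30, adjusted p = 0.00446), also in every such fit. Ak1, the cytosolic adenylate kinase, fell by 0.91 on the log2 scale (adjusted p = 0.0156), a call lost without AMPK-KO replicate 3 (0.0530) or WT replicate 3 (0.0781).

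Between stages, calls were made for the substrate gene Fnip1 and the nucleotide enzymes Ampd2 and Ampd3. None of the 13 paralogs and regulators or the 11 AMPK-related kinases was called, beside 9.18% of all genes. Fnip1, a folliculin partner, fell from 68.2, 80.8 and 80.5 CPM in early-stage to 62.9, 58.4 and 59.9 CPM in late-stage TAMs (log2 fold change -0.34, adjusted p = 0.0386). Ampd3 fell from 46.7, 52.8 and 49.5 CPM to 39.9, 39.1 and 38.7 CPM (log2 fold change -0.34, adjusted p = 0.0286), while Ampd2 rose from 34.5, 35.3 and 28.6 CPM to 47.5, 41.8 and 40.8 CPM (0.40, adjusted p = 0.0454). None of these groups overlapped. Each of these 3 calls was lost without early-stage replicate 2 or any 1 of the 3 late-stage replicates, and those of Fnip1 and Ampd2 also without early-stage replicate 3, with adjusted p of 0.0598 to 0.174 in these fits.

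**Figure D4:**
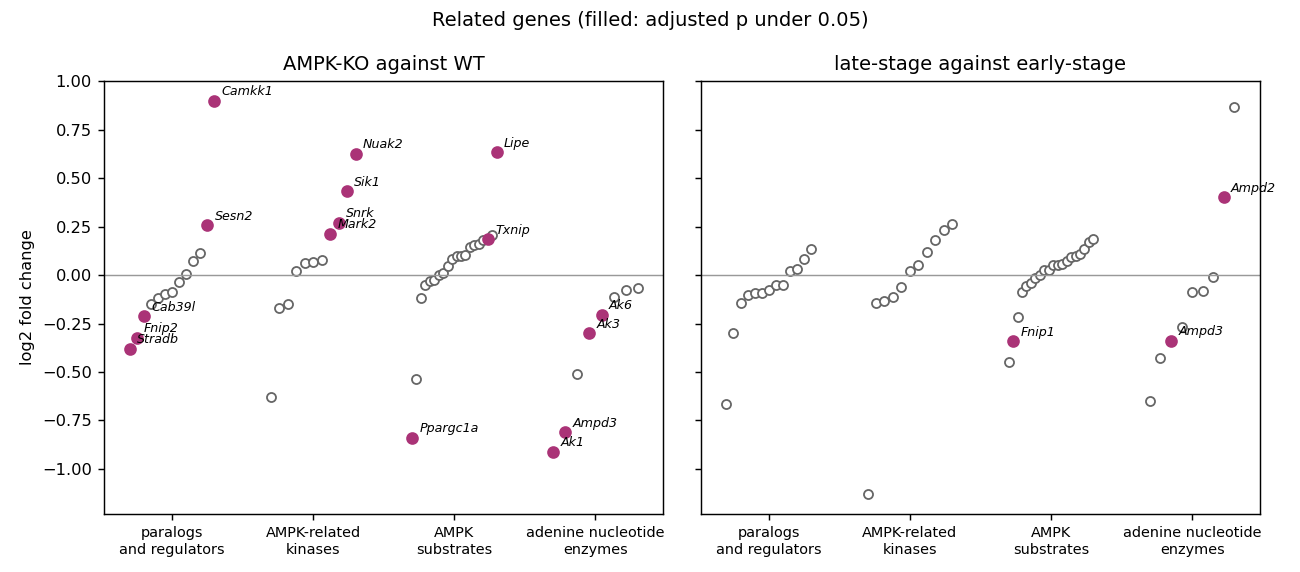
Log2 fold change (vertical axis) of genes tested in 4 lists around AMPK, ordered by value within each list, for AMPK-KO against WT (left) and late-stage against early-stage TAMs (right), filled and named where the adjusted p was under 0.05. Camkk1 at 0.90 is the highest named point and Ak1 at -0.91 the lowest, both in AMPK-KO against WT.

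Across all 12 libraries, centred within each table, the 3 genes whose log2 CPM lay nearest to that of Prkaa1 were Sec24d (root mean square difference 0.062), St6gal1 (0.0656) and Aff3 (0.0717), of 16812 genes in both tables. For scale, the profile of Prkaa1 itself had a root mean square of 0.253, and its median difference to all genes was 0.341. This likeness is a description of levels over the 12 libraries.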

How the data were processed

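RNA from 12 sorted TAM samples was sequenced by the authors, aligned with HISAT2 and counted per gene with featureCounts, and per the labels the build was mm10 (GRCm38). The deposited values were raw counts. Both tables were used whole, and no column lacked a sample. Genes were filtered with filterByExpr and fitted per table with edgeR 4.0.16 (TMM, quasi-likelihood F-test, Benjamini-Hochberg over all tested genes), and called at an adjusted p under 0.05. CPM used TMM-scaled library sizes. The SE was the absolute log2 coefficient, fitted without edgeR's prior count, divided by the square root of F. Confidence intervals were centred on the reported log2 fold change. The fits were tested on simulated counts. The study's own rule (DESeq2, unadjusted p under 0.05 and absolute log2 fold change above 1) was an alternative, as were DESeq2 1.42.0 with adjusted p, other scalings and filters, a fit of all 12 libraries, the replicate number as a block and leaving out each library. With 3 against 3 libraries, an exact permutation test cannot go below p = 0.1, so none was used.

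Gene places and exon lengths came from GENCODE M21, which held 54349 of the 55401 identifiers with their version. Stk11 had another version there, so its place is not printed, and its length is that of the M21 model. Activation loop windows were read from the longest reading frame. The members and the related lists were chosen with earlier results of these data known. Named from each related list were up to 3 genes per direction and comparison with the smallest adjusted p under 0.05 (1 such gene is not reported here), and the 3 genes nearest Prkaa1 by root mean square difference. Depth of 71019494 counts or more leaves counting error small except for genes with few counts, among them Prkaa2, Prkag3, Camkk1, Ppargc1a and Ak1.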

Additional observations from a re-analysis of the deposited data

How the results depend on the processing

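Among the 10 members, Prkaa1 in AMPK-KO kept its call in every alternative except the study's rule, under which no member was called, since its fold change is below the limit of 1. That rule gave 1140 called genes and 1 related gene in AMPK-KO against WT, where 3693 and 17 were called. Leaving out each library gave 1 member, 2414 to 4039 genes and 8 to 18 related genes. For late-stage against early-stage, where 0 members, 1619 genes and 4 related genes were called, the fit over 12 libraries gave 3 members, 2649 genes and 8 related genes. DESeq2 with adjusted p gave 1 member and 2447 genes, the study's rule 1 member (Prkaa2), 997 genes and 0 related genes, and no filter 936 genes and 1 related gene. Leaving out each library gave 0 to 1 members, 653 to 2835 genes (2835 without early-stage replicate 1) and 0 to 6 related genes. The cause of these moves was not tested.

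Members near 0 changed sign in single fits, none past the threshold. In AMPK-KO, Prkab2 ranged from -0.10 to 0.13 as each library was left out, Prkag1 from -0.087 to 0.031, Stk11 from -0.053 to 0.020 and Strada from -0.050 to 0.027. Prkab2 was 0.13 without WT replicate 1, Prkag1 0.031 and Stk11 0.0034 without WT replicate 2, Stk11 0.020 and Strada 0.027 without AMPK-KO replicate 1, and Strada 0.019 without WT replicate 1. Late-stage Cab39 ranged from -0.081 to 0.065, and was 0.0024 on total counts only, 0.065 without early-stage replicate 3 and 0.0023 without late-stage replicate 2. Scaling had little effect on the centre of the distribution, the median over all genes reaching at most 0.0285 on the log2 scale.

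Replicate numbers showed no sign of pairing: deviations of same-numbered libraries correlated at -0.0039 to 0.0423 in the first table and 0.0132 to 0.0255 in the second. Such correlations over 3 libraries per group cannot settle whether libraries were paired. With the replicate number as a block, 1 member, 3862 genes and 18 related genes were called in AMPK-KO, and 0 members, 1417 genes and 2 related genes in late-stage TAMs.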
